A study of Zea mays with 12 samples.

Results

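In 204 of 17621 maize probe sets both reciprocal hybrids lay near the lower of the 2 inbred parents. Each probe set combines several short probes that match 1 transcript sequence. Embryo RNA was measured at 19 days after pollination in 4 genotypes with 3 arrays each: inbred B73, inbred Mo17, and their reciprocal hybrids B73xMo17 and Mo17xB73. Both hybrids receive 1 nuclear genome from either inbred, and by convention the seed parent is written first. Per the labels' protocols the plants were field grown and each replicate number marks 1 of 3 collection dates, shared by all genotypes. The series title poses the question whether transcripts that differ between the inbreds are expressed additively in the hybrids, at the mean of both parents.

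Members were chosen from the signals themselves. Each array was scaled to the same median. A member had all 12 arrays at 50 units or more, all arrays of one inbred above all arrays of the other, and an inbred mean ratio of 1.5 or more. The fourth criterion used d/a, the hybrid mean minus the mean of the inbreds, divided by the distance from that mean to either inbred. On this linear scale d/a is 0 at the parental mean, -1 where a hybrid equals the lower parent and 1 where it equals the higher, and a member had d/a between -1.5 and -0.5 in each cross. The first criterion kept 10960 probe sets, the second 6121 and the third 2381, of which 204 met the last. Since the rule used all 4 group means, the inbred differences and d/a values of the members are descriptions and carry no test.

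Under purely additive control, where the output of each allele is the same in the hybrid as in its inbred parent, a hybrid sits at the parental mean. A hybrid near the lower parent expresses less than that mean, a pattern classed as low-parent dominance in studies of heterosis, the greater vigour of hybrids. Both parents supply 1 set of chromosomes to the embryo, while the neighbouring endosperm receives 2 from the seed parent and 1 from the pollen parent.

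Most members were transcripts with a lower signal in B73, so that both hybrids resembled B73. B73 was the lower inbred in 160 of the 204 members and Mo17 in 44. B73 was thus lower in 78.4% of the members, against 52.2% of the 2381 that met the first 3 criteria, called here the probe sets with an inbred difference. The opposite class, in which both hybrids lay near the higher inbred (d/a from 0.5 to 1.5), held 38 probe sets, with B73 higher in 24 and Mo17 higher in 14. The balance of the classes depends on the scale of d/a: computed on the log2 scale, where the parental mean is the geometric one and so lies lower, 106 probe sets lay near the lower and 152 near the higher inbred. B73 was lower in 81 of those 106. On the linear scale the hybrids lay near B73 in 184 probe sets of both classes and near Mo17 in 58. Over those 2381 the median d/a was -0.26 where B73 was lower and -0.05 where Mo17 was lower. B73 was lower in 272 of the 360 probe sets with a mean d/a above -1 and up to -0.5, and in 205 of the 612 above 0 and up to 0.5. Its share was larger again further out, at 46 of the 116 above 0.5 and up to 1, 12 of the next 25 up to 1.5, and 7 of the 11 beyond.

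**Figure D1:**
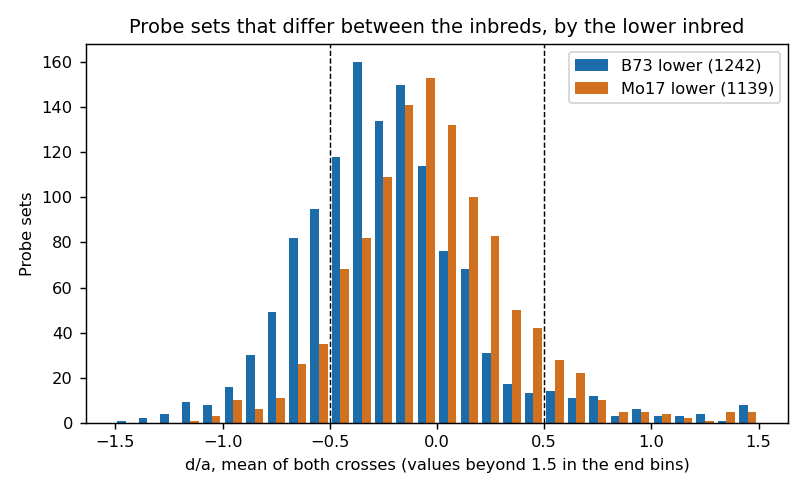
Number of probe sets (y axis) by d/a averaged over both crosses (x axis, no unit) for the 2381 probe sets with an inbred difference, B73 lower in blue and Mo17 lower in orange, and values beyond 1.5 in the end bins. The blue distribution sits further to the left, with a median of -0.26 against -0.05, and dashed lines mark d/a of -0.5 and 0.5.

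The number of members depended on how the arrays were scaled. After the common median was set, the 75th percentile of the signals lay between 773 and 834 on the 6 inbred arrays and between 736 and 794 on the 6 hybrid arrays. With quantile normalization, which gives all arrays 1 distribution, 133 probe sets lay near the lower inbred and 79 near the higher, and with the values as deposited 143 and 32. Of the 204 members, 107 also met the rule with quantile normalization, 95 as deposited and 61 under all 3 scalings. The median d/a over probe sets with an inbred difference was -0.16 with the common median and -0.05 with quantile normalization. B73 was the lower inbred in 70.7% of the probe sets near the lower inbred with quantile normalization and in 76.9% as deposited, against 49.7% and 40.7% of all that differed. In the class near the higher inbred B73 was the lower one in 32 of 79 with quantile normalization, below the 49.7% of all that differed. As deposited it was the lower one in 16 of 32, above the 40.7% of all that differed, so that the lean of this class to B73 was not seen there.

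**Figure D2:**
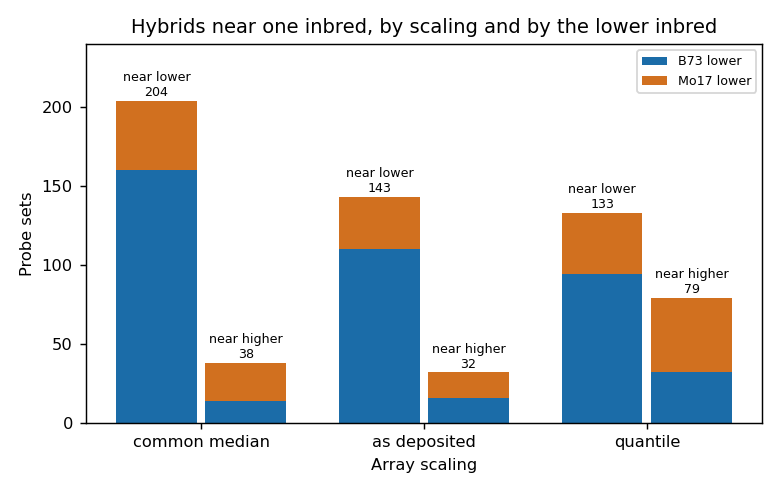
Number of probe sets with both hybrids near the lower or near the higher inbred (y axis) under 3 array scalings (x axis), split by the lower inbred. The class near the lower inbred shrinks from 204 to 133 with quantile normalization while the class near the higher inbred grows from 38 to 79, and B73 makes up most of the lower class in each.

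The rule was also applied to each collection date alone, with 1 array per genotype. It then found 317, 197 and 326 probe sets near the lower inbred on dates 1, 2 and 3. Of these 87, 50 and 96 were among the 204 members, so that most found on a single date were not members. The overlap between the dates was not counted. Both crosses lay below the parental mean in 193, 179 and 197 of the 204 members on dates 1, 2 and 3, on arrays that the choice of members had used. B73 was lower in more of each date's set than of its background, with B73 lower in 67.2%, 72.6% and 70.6% of the sets. Among all probe sets that differed 1.5-fold on those dates B73 was lower in 55.4%, 53.4% and 50.6%. The numbers name the dates, and the labels do not say whether they follow the calendar.

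Members were mostly moderate differences between the inbreds. Their median inbred ratio was 1.65 (quartiles 1.55 and 1.84), against 1.92 over the 2381, and 34 members reached a ratio of 2. The class near the lower inbred took 15.6% of the 858 probe sets in the lowest bin of the ratio, 7.89% in the next bin, which ends at 2, 4.59% between 2 and 3, and 1.15% at 3 or more. The spread of d/a moved with the ratio as well: the median SD of d/a over the 6 hybrid arrays was 0.42 in the first of these bins and 0.18 in the last, and its part in the shares was not tested. B73 was lower in 76.1%, 83.3%, 82.8% and 80% of the members of the 4 bins, from the lowest ratio to the highest. Over all probe sets with an inbred difference its shares in these bins were 59.1%, 52.9%, 47.9% and 43.9%. The first bin held 134 of the members and the last only 5. Brightness separated members less, since they made up between 7.17% and 10.1% of the probe sets in each of 4 bins of the mean inbred signal. The median member measured 303 units in the lower and 561 in the higher inbred.

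The hybrids usually stood slightly above the lower inbred and well apart from the higher one. The median member measured 1.09 times the lower inbred in B73xMo17 and 1.09 times in Mo17xB73. In 193 members all 6 hybrid arrays lay below all 3 arrays of the higher inbred, and in 175 all 6 lay below the parental mean. In 178 members at least 1 hybrid array fell inside the range of the lower inbred's arrays, while in 16 all 6 lay above that range and in 0 all 6 lay below it. The rule separates the inbreds and keeps d/a at -0.5 or less, so it favours such counts by itself. They were not made over the 2381. Both d/a values lay between -1 and -0.5 in 152 members, and 8 had both below -1. Taken singly the hybrid arrays differed: the median d/a of the members ran from -0.58 on Mo17xB73 replicate 2 to -0.92 on Mo17xB73 replicate 1, with the 3 B73xMo17 arrays between -0.80 and -0.72.

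**Figure D3:**
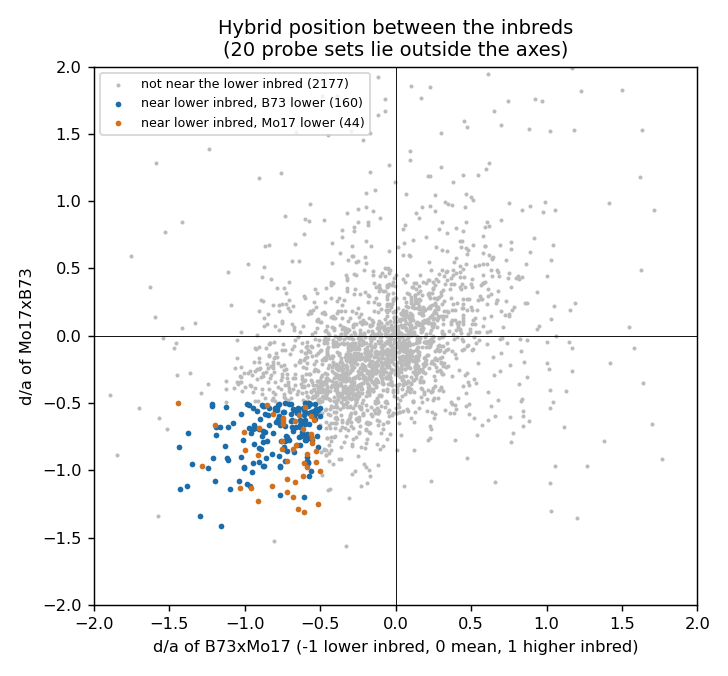
d/a of B73xMo17 (x axis) against d/a of Mo17xB73 (y axis), no unit, 1 point per probe set for those that differed between the inbreds, with 20 points beyond the axes. Members fill the square from -1.5 to -0.5 on both axes, and the blue points (B73 lower, 160) outnumber the orange ones (Mo17 lower, 44).

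The platform annotation gave exactly 1 gene for 14 of the 204 members, which stand for 13 genes, and the other members are described by their probe set IDs. Probe sets with 1 gene were members in 14 of 205 cases where the inbreds differed (6.83%), against 8.57% over all that differed. B73 was lower in 11 of the 14. The named genes belong to metabolism, proteolysis and stress proteins, transport at the thylakoid, DNA replication and transcription. No more than 1 gene came from any list searched.

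Among enzymes of metabolism, pdc1 (Zm.166.2.A1_a_at) encodes pyruvate decarboxylase, the enzyme that opens ethanol fermentation, and was one of the members with Mo17 lower. Its scaled signals were 762, 1022 and 1324 in B73 and 156, 195 and 371 in Mo17. B73xMo17 measured 250, 386 and 547 and Mo17xB73 measured 204, 255 and 216. All hybrid arrays lay below all B73 arrays, 4 of the 6 lay inside the Mo17 range, and only B73xMo17 replicates 2 and 3 exceeded it. The inbred ratio was 4.31 and d/a was -0.61 in B73xMo17 and -1.04 in Mo17xB73. Without Mo17 replicate 3 the ratio was 5.90, and pdc1 no longer met the rule without that array or without replicate 1 of B73xMo17. The other probe set of pdc1 (Zm.166.2.S1_at) was dim, with means of 33.9 in B73 and 34.5 in Mo17, and did not show the difference.

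gsh1 (Zm.9043.1.S1_at) encodes glutamate-cysteine ligase, which catalyses the first step of glutathione synthesis. Its signals were 1182, 1206 and 1119 in B73 and 2048, 2512 and 2284 in Mo17. B73xMo17 measured 1314, 1239 and 1069 and Mo17xB73 measured 1306, 1537 and 1194. All hybrid arrays lay below the Mo17 arrays. Of the 6, 4 lay above the B73 range, 1 inside it and 1 below it. The ratio was 1.95, d/a was -0.93 and -0.68 in B73xMo17 and Mo17xB73, and gsh1 met the rule without any one of the 12 arrays.

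Members that encode a protease and a stress protein were also lower in B73. The cysteine protease gene mir3 had a pair of member probe sets. Zm.5987.1.A2_at measured 121, 79.1 and 84.7 in B73 and 264, 285 and 268 in Mo17, with 126, 121 and 121 in B73xMo17 and 140, 129 and 102 in Mo17xB73. Hybrids and Mo17 were far apart, and d/a was -0.68 in each cross. The second, Zm.5987.1.A2_a_at, stood at 98.1 ± 4.13 in B73 and 202 ± 21.0 in Mo17 (mean ± SD, n = 3), with d/a of -0.89 and -0.51. Since their IDs differ only in the suffix, they may share probes and are not independent readings. A further probe set of that ID cluster, Zm.5987.1.A1_at, missed the rule through its lowest signal of 45.4 and had d/a of -0.97 and -0.60. Another, Zm.5987.2.A1_at, also dim, lay near the parental mean at -0.16 and 0.13.

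hsp22 (Zm.369.1.A1_at) encodes a small heat shock protein, a chaperone made under heat and other stress. It measured 211, 242 and 306 in B73 and 371, 428 and 1162 in Mo17. B73xMo17 gave 209, 222 and 347 and Mo17xB73 gave 432, 244 and 375. Mo17 replicate 3 stood far above the other arrays, and Mo17xB73 replicates 1 and 3 overlapped Mo17. The ratio of 2.58 fell to 1.58 without Mo17 replicate 3, and hsp22 then no longer met the rule. umi11 (Zm.7000.1.A1_at), listed under the synonym cyclotide, measured 657, 484 and 386 in B73 and 2109, 1379 and 1612 in Mo17. The hybrids gave 909, 647 and 790 (B73xMo17) and 897, 637 and 733 (Mo17xB73). Of the 6 hybrid arrays 4 stood between the inbreds and 2 inside the B73 range, with d/a of -0.54 and -0.59, and umi11 left the class with quantile normalization.

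pcna2 (Zm.531.1.S1_at), the sliding clamp that holds DNA polymerase on its template, was the brightest named member. The B73 arrays read 3303, 3688 and 4288 and the Mo17 arrays 5916, 5452 and 6303. The B73xMo17 arrays read 3923, 4315 and 4551 and the Mo17xB73 arrays 3897, 4355 and 4488. Hybrids and B73 overlapped, and Mo17 stood above both. A bright probe set of the same ID cluster, Zm.531.2.A1_at, had an inbred ratio of only 1.06, with means of 1815 in B73 and 1922 in Mo17. The member pcna2 (Zm.531.1.S1_at) itself lay close to the limit, with d/a of -0.53 and -0.54. Its mean d/a was -0.26 with quantile normalization, and it left the class without any one of 5 arrays. m26 (Zm.14824.1.S1_at), a gene of the MADS-box transcription factor family, measured 121 ± 20.9 in B73 and 208 ± 31.0 in Mo17, and 124 ± 1.23 and 136 ± 44.4 in the hybrids B73xMo17 and Mo17xB73. Mo17xB73 replicate 2, at 187, lay among the Mo17 arrays.

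The remaining named members had inbred ratios between 1.5 and 1.94. hpl1 (hydroperoxide lyase, which cleaves lipid hydroperoxides into leaf volatiles) stood at 90.2 ± 32.2 in B73 and 175 ± 11.1 in Mo17, with 106 ± 39.0 in B73xMo17 and 102 ± 22.1 in Mo17xB73. hcf106 (a subunit of the twin-arginine translocase of the thylakoid) measured 127 ± 14.9 in B73 and 226 ± 14.9 in Mo17, with hybrids at 143 ± 8.20 (B73xMo17) and 149 ± 10.0 (Mo17xB73). Its hybrid arrays spanned 135 to 161, all below the lowest Mo17 array at 212. annexin2, a calcium-dependent membrane-binding protein, was lower in Mo17 (124 ± 7.56) than in B73 (215 ± 51.5), with 146 ± 2.02 in B73xMo17 and 113 ± 13.4 in Mo17xB73. PEAMT (phosphoethanolamine N-methyltransferase, an enzyme of choline synthesis) was likewise lower in Mo17 (425 ± 61.8) than in B73 (645 ± 42.1), with 456 ± 82.1 and 418 ± 71.0 in B73xMo17 and Mo17xB73. A bright probe set of the PEAMT cluster, Zm.16907.2.S1_at, was also lower in Mo17 (ratio 1.25), and the other probe set of annexin2, Zm.74.1.S1_at, was dim. vip3 had a ratio of 1.5 and LOC542182 one of 1.70, both with B73 lower. vip3 met the rule in 4 of the 12 tables with 1 array left out.

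**Figure D4:**
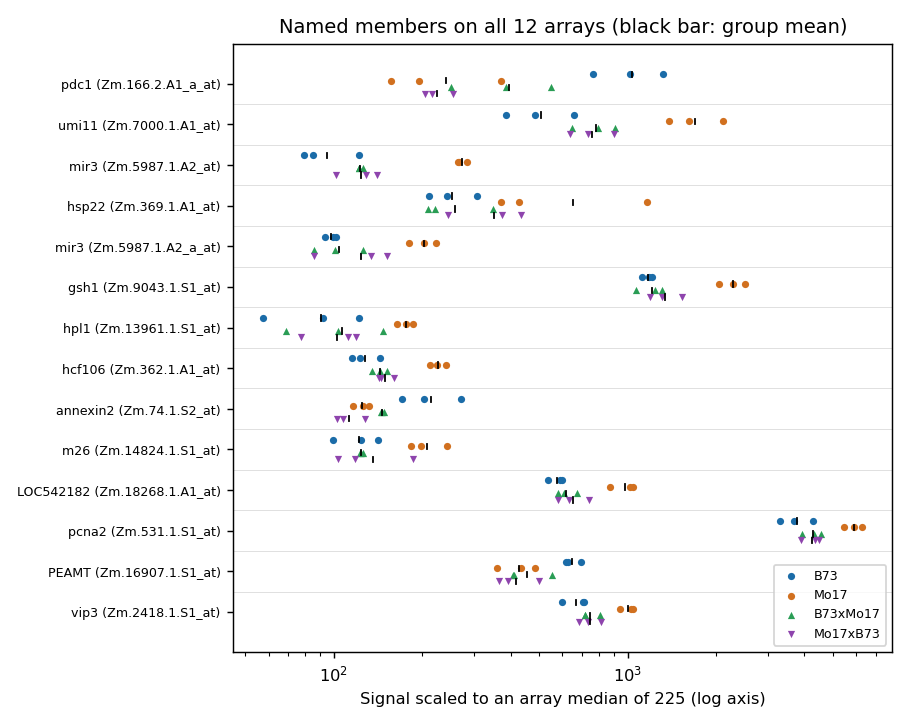
Scaled signal (x axis, log scale) of the 14 member probe sets with a named gene, 3 arrays per genotype as points and group means as black bars. In most rows the green and purple hybrid points overlap the lower inbred, and 11 of the 14 have B73 (blue) as the lower inbred.

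The widest inbred difference among the members belonged to a probe set unnamed here, and pdc1 had the next widest. Zm.17163.1.A1_at, with a ratio of 6.79, measured 191, 234 and 168 in B73 and 879, 1413 and 1734 in Mo17. Its hybrids gave 405, 376 and 492 in B73xMo17 and 252, 527 and 454 in Mo17xB73. All 6 hybrid arrays lay above the B73 range and below the Mo17 range, with d/a of -0.60 and -0.63. Zm.17549.2.A1_at (ratio 3.42) and Zm.6450.1.S1_at (ratio 3.24) were also lower in B73, with d/a between -0.79 and -0.58. The probe set Zm.17549.2.A1_x_at, whose ID differs from the former only in the suffix, did not show the difference, with means of 734 in B73 and 702 in Mo17. In Zm.6450.1.S1_at Mo17xB73 was spread widely, at 315, 1067 and 567.

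The 19 gene lists hold few members. Heat shock proteins and chaperones held 1 (hsp22) of 4 genes that differed between the inbreds, replication and cell cycle 1 (pcna2) of 2, and glycolysis and fermentation 1 (pdc1) of 4. The other 16 lists held 0 members, among them glutathione transferases (0 of 8 that differed), other endosperm genes (0 of 8), embryo storage and LEA proteins (0 of 6), transcription factors (0 of 6), transport proteins and aquaporins (0 of 6), ribosomal proteins (0 of 3) and zeins (0 of 2). m26 falls outside the transcription factor list, whose patterns do not match its name, although the list holds other genes with names of that form. hpl1 is likewise missing from the lipid and oxylipin list (0 of 2 that differed). The counts of 0 for these lists thus depend on how names were matched. With 13 named genes such counts cannot set one list apart from another.

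The labelled tissue was checked against marker genes. Of 8 embryo markers 7 had group means of 107 or more, with ole1, an oil body protein, between 13707 and 15587, and 1 probe set (GLB1) was dim, with group means of 5.23 to 21.7. The 8 summed to between 34270 and 46524 on the inbred arrays and between 39367 and 49019 on the hybrid arrays. Endosperm markers were bright too: the summed signal of 10 genes lay between 43600 and 64318 on the inbred arrays and between 50304 and 60298 on the hybrid arrays. Of these dzs18 measured 12073 in B73 and 87.7 in Mo17. For 7 basal transfer layer genes the sum was 2967 to 3856 in B73 and 7801 to 12269 in Mo17, with 5270 to 7418 in B73xMo17 and 9488 to 14287 in Mo17xB73. None of the endosperm or basal layer markers was a member, and the part of neighbouring tissue in the members' signals was not tested. The 5 markers of green tissue summed to between 79.1 and 175 on all arrays. In whole embryos a lower signal from fewer cells of a type and one from less RNA per cell cannot be told apart.

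The reciprocal hybrids were compared directly, since the rule did not set the sign of their difference. It does bound its size, because both crosses had to fall in 1 window of d/a. limma, adjusted by the Benjamini-Hochberg method over all probe sets, called 136 of 17621 at 0.05 (0.772%), 56 higher in B73xMo17 and 80 higher in Mo17xB73. It called 0 of the 204 members, of which 7 (3.43%) had an unadjusted p below 0.05, against 10.6% of all probe sets. The median difference over the members was -0.01 on the log2 scale (B73xMo17 minus Mo17xB73), with quartiles of -0.09 and 0.06.

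The closest to a call was ZmAffx.1086.1.A1_at, unnamed here. It measured 326, 226 and 251 in B73 and 99.6, 87.8 and 96.1 in Mo17, with 131, 126 and 118 in B73xMo17 and 55.9, 61.4 and 91.2 in Mo17xB73. The crosses did not overlap, and the Mo17xB73 arrays fell inside or below the Mo17 range. The difference was 0.88 ± 0.20 (log2, SE; limma adjusted p = 0.0596). It passed in 2 of 18 alternatives: in the fit of probe sets at 50 or more (adjusted p = 0.0276) and without Mo17xB73 replicate 3 (adjusted p = 0.0307). Over the 18 its adjusted p ran from 0.0276 to 0.4996. pdc1 differed by 0.75 ± 0.31 (limma adjusted p = 0.406) and annexin2 by 0.38 ± 0.17 (limma adjusted p = 0.444), in both with the lower value in the cross with Mo17 as seed parent. Over all members, 120 of 204 (58.8%) were lower in the cross whose seed parent was the lower inbred, against 1602 of the 2381 (67.3%). The median of that difference was -0.03 for the members and -0.08 for the 2381 (log2).

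Collection date, which the rule did not use, was tested with an F test over the 3 dates in limma, with genotype as the other term. Over all probe sets 19 of 17621 were called (0.108%), and 1 of the 204 members. An unadjusted p below 0.05 was found for 48 members (23.5%), against 15.9% of the 2381 and 10.8% of all. Of those 48 members 37 had the lowest mean on date 1, against 191 of the 331 other probe sets with an inbred difference and such a p (77.1% and 57.7%). These shares were not compared by a test.

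The called member was Zm.4302.1.A1_x_at, unnamed here and lower in Mo17. Its signals on dates 1, 2 and 3 were 1759, 2327 and 2684 in B73 and 1020, 1228 and 1481 in Mo17. The hybrids gave 999, 1485 and 1625 (B73xMo17) and 1149, 1343 and 1477 (Mo17xB73). Every genotype was lowest on the date numbered 1 and highest on that numbered 3, by 0.55 on the log2 scale on average (limma adjusted p = 0.0234). The call held in 6 of 16 alternatives, with adjusted p from 0.0117 to 0.769, and was lost with quantile normalization, as deposited, without the eBayes trend, and without any one of 7 arrays (each of the B73 arrays, Mo17 replicates 1 and 3 and B73xMo17 replicates 1 and 3). A probe set of the same ID cluster, Zm.4302.2.A1_a_at, missed the class narrowly with d/a of -0.43 and -0.55, and another, Zm.4302.2.A1_x_at, lay at the parental mean (-0.03 and -0.08).

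Among named members umi11 (limma adjusted p = 0.1003), pdc1 (limma adjusted p = 0.155), hsp22 (limma adjusted p = 0.279), LOC542182 (limma adjusted p = 0.307) and hpl1 (limma adjusted p = 0.317) had the smallest p-values for date. pdc1 and hpl1 had their lowest date mean on date 1 and their highest on date 3, while umi11 was highest on date 1 in all 4 genotypes. hsp22 had its highest date mean on date 3, where Mo17 reached 1162 and the other 3 genotypes 306 to 375. Mo17xB73 was instead highest on date 1, at 432.

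**Figure D5:**
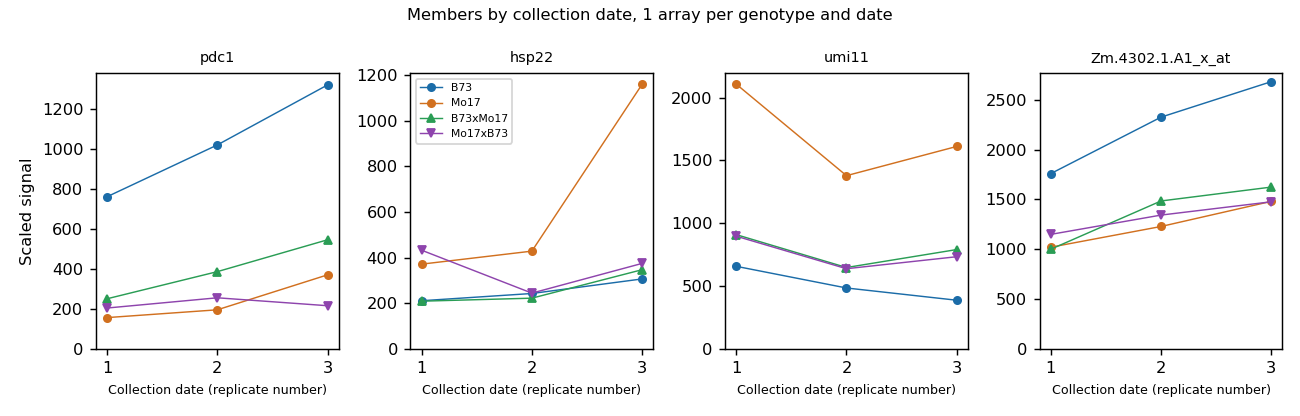
Scaled signal (y axis, linear from 0) by collection date (x axis, the replicate number) for pdc1, hsp22, umi11 and Zm.4302.1.A1_x_at, 1 array per genotype and date, with lines that join the arrays of a genotype and stand for no time course. Zm.4302.1.A1_x_at is lowest on date 1 in all 4 genotypes, and hsp22 peaks in Mo17 on date 3 at 1162.

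Other probe sets that share a gene or an ID cluster number with a member give a second reading for some of them. A shared cluster number groups related sequences and is not proof of 1 gene. Of the 204 members 54 had such a partner, 117 partners in all, of which 10 were themselves members. Of the other 107 partners 71 had all arrays at 50 or more, and in 53 of these the same inbred was the lower one. Some of the 71 hardly differed between the inbreds, such as Zm.14867.2.A1_at with a ratio of 1.00. Only 18 of the 107 differed between the inbreds by the first 3 criteria. Among them 12 had the same lower inbred as the member, and 14 had both crosses below the parental mean. The 14 include partners with the other inbred lower, such as Zm.4077.2.A1_at, whose hybrids thus leaned to the other parent. Such shares were not counted over the 2381, whose median d/a was itself -0.16. Probe sets with the suffix a, s or x, which marks probes shared between transcripts, made up 14.2% of the members and 14.1% of the 2381.

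The limits of the rule fell among many similar probe sets. The probe sets just inside and outside d/a of -0.5 stood at -0.5002 (Zm.8915.2.S1_a_at) and -0.4995 (Zm.4569.1.S1_at), and those at the inbred ratio at 1.5002 (Zm.12744.1.A1_at) and 1.495 (Zm.14576.1.S1_a_at). At the minimum signal they stood at 50.01 (Zm.9389.2.A1_x_at) and 47.1 (Zm.777.1.S1_a_at), and at the lower limit of d/a at -1.44 (Zm.9600.1.A1_at) and -1.52 (Zm.12048.1.S1_at). With 1 array left out at a time, 45 members met the rule in all 12 tables and 104 in at least 10, and 31 did so in all 12 and under all 3 scalings. Of the named members mir3 (Zm.5987.1.A2_at) and gsh1 were in that group.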

How the data were processed

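Total RNA of embryos was hybridised to 12 one-colour Affymetrix maize arrays. The deposited values are probe set signals, linear intensity values; MAS5 made them, per the submitters' processing notes, and no scaling between arrays is given in the sources used here. Array medians of the deposited intensity ran from 192 to 314. The 113 AFFX control probe sets were left out and each array was divided by its median and multiplied by 225. Detection calls were not used. The number of arrays limits the precision.

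Members and gene lists were chosen with earlier results of these data known. Log2 scaled signals were fitted with limma 3.58.1 in R 4.3.3 (lmFit, eBayes with intensity trend, all 12 arrays), for B73xMo17 minus Mo17xB73 and for collection date. P-values are two-sided for the former, from an F test for the latter, and adjusted by Benjamini-Hochberg over 17621 probe sets. The replicates are biological samples per the labels, and equal numbers share a collection date per the labels' protocols. Deviations from the group means of same-numbered arrays correlated at 0.13 on average over 18 pairs, and at -0.06 over 36 pairs with different numbers. Because deviations cancel within a group, the second value is tied to the first and is no separate reference for it. The replicate block changed no member's call.

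Of the probe sets 1452 had 1 gene in the platform annotation, 1 had several and 16168 had none. Of 1108 genes 1060 matched by gene ID a RefSeq gene table (assembly Zm-B73-REFERENCE-NAM-5.0), used for names only. Named members are those with exactly 1 gene, the 4 others with the largest ratio, members called in a test or with its smallest p, and those at the limits of the rule. ZmAffx.1086.1.A1_at is also singled out after its values were seen, as the smallest p of the reciprocal test, and so are the partner probe sets given beside members. Alternatives covered the scaling, the limits of the rule, the d/a scale, the variance model, dim probe sets, the replicate block and each array left out. The rule within each date was added after seeing the data.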

Additional observations from a re-analysis of the deposited data

How the results depend on the processing

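The member count of 204 became 133 with quantile normalization, 321 without a minimum signal, 34 at an inbred ratio of 2, 116 and 312 with the d/a limit at -0.6 and -0.4, 106 with d/a on the log2 scale and 388 with d/a of both crosses together. Leaving out 1 array gave 175 to 252. The 160 members with B73 lower became 94, 28, 88, 81 and 296 with quantile normalization, the ratio of 2, the limit of -0.6, the log2 scale and both crosses together, and 133 to 210 with 1 array left out. The 38 probe sets near the higher inbred became 79 with quantile normalization, 21 at a minimum signal of 100, 114 without one, 19 at a ratio of 2, 19 and 70 with the limits at 0.6 and 0.4, 59 without an outer limit, 152 on the log2 scale and 141 with both crosses together, and 29 to 54 with 1 array left out. On the log2 scale the parental mean is lower by construction, so that fewer probe sets lie near the lower inbred. Applied to dates 1 and 3 alone the rule gave 317 and 326 probe sets, with 87 and 96 of the 204 members among them, and the class near the higher inbred held 76, 62 and 72 on dates 1, 2 and 3.

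The reciprocal contrast gave 136 calls over all probe sets, 42 as deposited, 12 without the eBayes trend, 166 with the replicate block and 45 to 134 with 1 array left out. It gave 77, 56 and 65 without B73xMo17 replicates 1, 2 and 3 and 81, 45 and 52 without those of Mo17xB73. Among members it gave 0 calls, 1 in the fit of probe sets at 50 or more, 0 with the replicate block and 0 to 1 with 1 array left out. Collection date gave 19 calls, 7 with quantile normalization, 29 as deposited, 0 without the trend, 35 at 50 or more and 0 to 24 with 1 array left out, below 12 without any one array but Mo17 replicate 2 (24) and Mo17xB73 replicate 2 (14). The fit without the trend had 8.46% of probe sets at an unadjusted p below 0.05. Among members collection date gave 1 call, 0 with quantile normalization, 0 without the trend, 2 at 50 or more and 0 to 2 with 1 array left out. The cause of these changes was not tested. The mean d/a of the 14 named probe sets kept its sign in all 210 checks. It moved by more than the SD over hybrid arrays in 3. The rule had chosen these probe sets for hybrids below the parental mean on the same arrays, so a kept sign was favoured in advance. Most checks left out only 1 array. The SD was also a wide measure. hsp22 went from -0.74 to -0.30 without Mo17 replicate 3 and did not count as moved. vip3 missed the rule in 8 tables with 1 array left out, yet none of its checks counted as moved. Signals near the low end limit the members between 50 and about 100 units.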
